A study of Rattus norvegicus with 31 samples.

Results

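Chemokines are small secreted proteins that direct the movement of leukocytes, and this account covers the rat genes that encode them and their receptors. All genes of the deposited FPKM table were taken whose names begin with Ccl, Cxcl, Ccr, Cxcr or Ackr followed by a digit, together with Cx3cl1, Cx3cr1, Xcl1 and Xcr1, and Cxcl13 was left out. The choice used names alone and gave 54 of 32883 genes, with 33 ligands and 21 receptors. The main test, the quasi-likelihood test of edgeR, called none of the 33 genes with enough counts at an adjusted p of 0.05 between any of the groups compared, and 21 genes could not be tested. DESeq2 called Ackr2 or Ackr4 in 3 comparisons and limma Ackr2 in 1. Values lay apart between groups for the scavenging receptors Ackr2 and Ackr4. Ackr2 was at 2.77 to 4.29 CPM (counts scaled to the library total) in perivascular fat above the ligature of sham rats and at 0.661 to 1.92 CPM below it. Ackr4 was at 3.53 to 10.8 CPM in perivascular fat below the coarctation and at 0.831 to 2.28 CPM in brown fat of the same surgery. Cxcl9 also lay apart in sham rats, at 13.0 to 19.6 CPM in perivascular fat above the ligature and 20.5 to 38.4 CPM in brown fat. With 10 comparisons of small groups, some groups can lie apart by chance.

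The libraries are bulk RNA sequencing of fat from male Sprague-Dawley rats, aged 10 to 15 weeks with a time point of 15 weeks per the labels. In the coarctation groups a silk ligature was tied around the mid-thoracic aorta, and in the sham groups the ligature was placed and not tightened. The design text gives a systolic gradient of about 20 mmHg across the coarctation 4 weeks after surgery. In coarcted rats the sites above and below thus differ in pressure and in position along the aorta. A comparison of sites alone cannot tell these apart. Perivascular adipose tissue (PVAT), the fat around the aorta, was taken above and below the ligature, while the BAT libraries are from brown adipose tissue. The coarctation groups hold 6 libraries from above (coarct above), 6 from below (coarct below) and 5 of BAT (coarct BAT), and the sham groups 5 from above (sham above), 5 from below (sham below) and 4 of BAT (sham BAT). Numbers in the library titles recur across sites and serve here as names, since the labels do not tie them to animals. P-values measure the spread between these libraries.

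Chemokines bind receptors that couple to inhibitory G proteins and steer migration along a gradient. Homeostatic ligands such as Cxcl12 and Ccl21 are made constitutively by stroma and vessels, whereas inflammatory ligands such as Ccl2 and Cxcl10 are induced by cytokines and draw in monocytes or T cells. Atypical receptors (the Ackr genes) do not signal through G proteins and instead take up and remove chemokines, which shapes the gradients. In adipose tissue the system is known for the recruitment of macrophages and lymphocytes, and in the mouse Cxcl14 is known as a chemokine that brown adipocytes release.

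Library totals were 15713160 to 26530733 counts, and the 54 genes together took 0.0239% to 0.0516% of the counts of a library. Of these genes, 13 lie on chromosome 10, 13 on chromosome 8 and 7 on chromosome 14. The markers of brown adipocytes (6 of 6 in the table, among them Ucp1 and Cidea) summed to 5249 to 8448 CPM over all libraries, with PVAT and BAT overlapping. Mesothelial markers separated the tissues, at 16.8 to 166 CPM in PVAT and 0.0516 to 1.43 CPM in BAT. Heart muscle markers were at 32.5 to 2592 CPM in 10 of 11 libraries of PVAT above the ligature, and library 30 of coarct above stood apart at 0.377 CPM. Markers of sympathetic neurons were at 158 to 363 CPM in libraries 23, 25, 29 and 30 of coarct below and 28 of sham below, and at or below 9.31 CPM in the other libraries. The libraries also fell on 2 sides by reads of mitochondrial 12S rRNA, 17 high and 14 low, with every group on both sides. The split was uneven within groups, and in sham below only library 20 was on the low side. In bulk tissue fewer cells of a type and less RNA per cell cannot be told apart.

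Levels between genes were compared as FPKM, which divides by gene length. Of the 54 genes, 22 had a mean of at least 1 FPKM over the 6 groups and 7 had at least 10 FPKM. Cxcl14 was the most abundant, with group means of 47.0 to 64.3 FPKM and a range of 32.4 to 91.6 FPKM over libraries. Next came Ackr3, which binds and removes Cxcl12, with group means of 18.1 to 34.9 FPKM, and Ccl6, a rodent macrophage chemokine, with 13.96 to 25.2 FPKM. Cxcl12, Cxcl9, Ccl21 and Ccl11 followed with overall means of 15.2, 14.9, 14.7 and 14.7 FPKM, and their library ranges overlapped, so no order among these genes stood out beyond the spread. Ccl5 (9.06 FPKM), Cxcr4 (8.73 FPKM) and Ccr10 (7.40 FPKM) completed the first 10 genes.

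**Figure D1:**
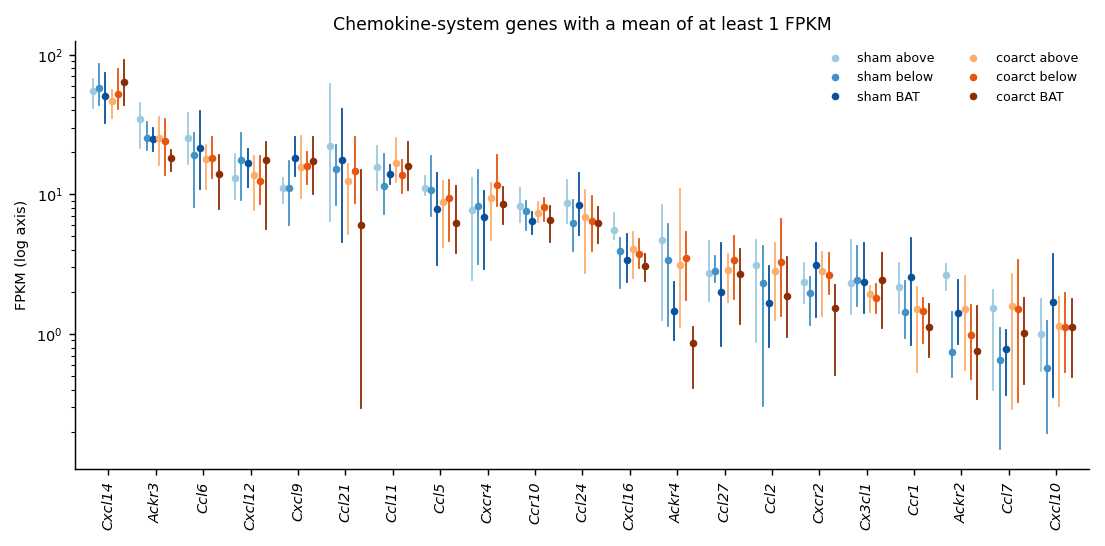
FPKM on a log axis for 21 of the 22 genes with a mean of at least 1 FPKM, in order of that mean; points are group means and lines run from the lowest to the highest library. Cxcl14 lies highest, at group means of 47.0 to 64.3 FPKM, and the libraries of Ccl21 run from 0.295 to 62.1 FPKM.

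Ligands and their receptors stood at different levels. Ccl21 had a mean of 14.7 FPKM while its receptor Ccr7 had 0.438 FPKM, and Cxcl9 had 14.9 FPKM while its receptor Cxcr3 had 0.887 FPKM. The eotaxins Ccl11 and Ccl24, which attract eosinophils, had 14.7 and 7.17 FPKM, and their receptor Ccr3 had 0.187 FPKM. Cxcl12 and its receptor Cxcr4 were closer, at 15.2 and 8.73 FPKM. The 4 neutrophil-attracting ligands measured were all low: Cxcl1 had a mean of 0.303 FPKM, Cxcl2 and Cxcl6 were under it at 0.0348 and 0.0267 FPKM, and Cxcl3 had no count in 31 libraries, which allows up to 0.00491 CPM over all libraries (3 counts of 610669394, counting error only). Ccr2, the receptor of Ccl2, and Ackr1 were not analysed here.

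Genes with low counts were removed before testing, and 33 of the 54 genes passed in at least 1 of the fits, 27 in every fit and 21 in none. The 21 untested genes, among them Ccl19, Cxcl1 and Ccl17, reached at most 23 counts in a library. A call was an adjusted p under 0.05 in the edgeR quasi-likelihood test, and log2 differences are between normalised counts. The test called 0 of 32 genes for coarct above against sham above (0% of all genes called), 0 of 32 for coarct below against sham below (0%) and 0 of 32 for the interaction of surgery and site (0%). It called 0 of 32 for coarct above against below (0.103% of all genes) and 0 of 32 for sham above against below (0.0687%). It called 0 of 28 for coarct BAT against sham BAT (0%). Between PVAT and BAT it called 0 of 32 for sham above (0.648%), 0 of 32 for sham below (0.81%), 0 of 29 for coarct above (1.28%) and 0 of 29 for coarct below (4.2%). The DESeq2 Wald test called 1 gene in each of 3 comparisons, Ackr2 for sham above against below and Ackr4 for both coarctation sites against BAT, and limma on log2(FPKM + 1) called 1 gene, Ackr2 for sham above against below. Neither called a gene in any of the other comparisons.

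At an unadjusted p under 0.05 the counts were read against the share of all genes. For coarct above against sham above 5 of 32 genes passed, or 15.6% against 3.59% of all genes. For coarct below against sham below 1 of 32 passed, or 3.12% against 5.13%, and for coarct above against below 0 of 32 against 5.43%. Sham above against below had 1 of 32 against 5.33%, and the interaction 1 of 32 against 2.42%. Coarct BAT against sham BAT had 2 of 28, or 7.14% against 6.8%. Sham above against BAT had 4 of 32, or 12.5% against 8.12%, and sham below against BAT had 7 of 32, or 21.9% against 10.5%. For coarct above against BAT 5 of 29 passed, or 17.2% against 16.7%, and for coarct below against BAT 4 of 29, or 13.8% against 23.9%. The share of chemokine genes was above that of all genes for coarct above against sham above and for both sham PVAT sites against BAT. It was within 1 percentage point of it for the interaction, coarct BAT against sham BAT and coarct above against BAT, and below it in the other 4. As 1 of 32 genes is already 3.12%, small gaps can rest on 1 gene. The comparisons share libraries, and the gaps between shares were not tested.

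**Figure D2:**
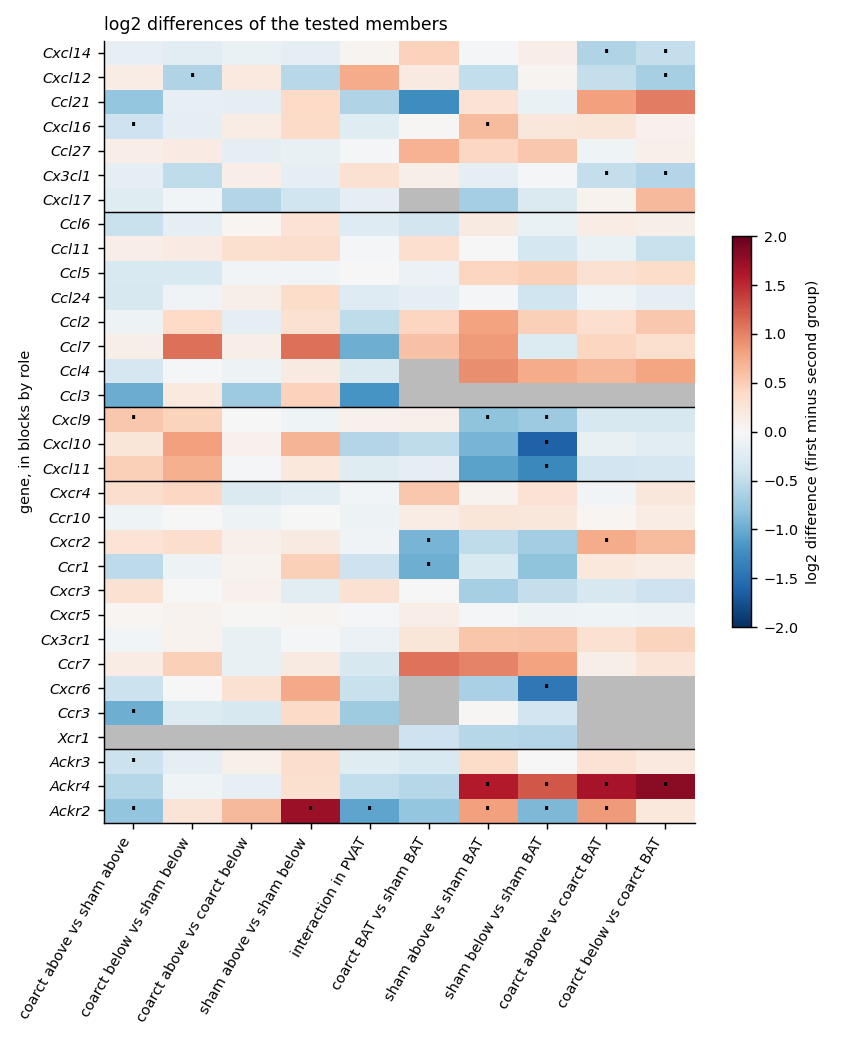
log2 differences of 32 of the 33 tested genes (rows, in blocks by role) in the 10 comparisons (columns), first group minus second group; the interaction is the above-minus-below difference in coarctation minus that in sham. Dots mark the 29 values with an unadjusted p under 0.05, grey marks genes not tested in that fit, and no value passed the adjusted threshold. The deepest reds are Ackr4 in PVAT against BAT (up to 1.80) and Ackr2 in sham above against below (1.70).

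Among the homeostatic ligands, 7 of 10 were tested. Cxcl12, the stromal ligand of Cxcr4, was at 127, 70.5, 150, 49.6 and 83.4 CPM in sham below (libraries 20, 22, 24, 26 and 28) and at 46.4 to 102 CPM with a median of 65.2 in coarct below. The groups overlapped, and the highest sham libraries were 20 and 24. The log2 difference of coarct below against sham below was -0.60 ± 0.27 (SE; adjusted p = 0.881). In coarct BAT Cxcl12 was at 130, 121, 101, 30.4 and 94.6 CPM, and coarct below was lower than coarct BAT by a log2 difference of -0.66 (adjusted p = 0.154). Library 29 of coarct BAT, the lowest, also had the lowest sum of blood endothelial markers of its group, 232 CPM against a median of 539 CPM, and the part of these cells was not tested. Sham above against sham below gave -0.56 and the interaction 0.75 (adjusted p = 0.933 and 1.0).

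Cxcl14 was at 127, 96.2, 70.9, 76.4 and 148 CPM in coarct BAT, at 57.3 to 90.8 CPM with a median of 75.7 in coarct above, and at 66.3 to 127 CPM with a median of 78.3 in coarct below. Both PVAT groups overlapped BAT, with the BAT libraries 19 and 30 on top. The log2 differences from BAT were -0.60 ± 0.20 (SE) above and -0.47 ± 0.20 (SE) below, with adjusted p = 0.171 and 0.175. Without library 27 of coarct BAT the difference above had an adjusted p of 0.0482, and without library 19 of coarct below the difference below also passed, so the call turned on 1 library. In sham rats the groups overlapped too, at 52.2, 77.4, 119 and 79.9 CPM in BAT (libraries 20, 22, 24 and 26), 70.7, 77.1, 138, 89.9 and 88.4 CPM in sham below and 108, 74.9, 94.3, 67.1 and 96.8 CPM in sham above.

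Cx3cl1, the membrane-bound chemokine fractalkine of endothelium and neurons, was at 12.0, 7.77, 6.59, 3.46 and 8.05 CPM in coarct BAT. It was at 4.45 to 7.13 CPM with a median of 5.84 in coarct below and 4.52 to 6.95 CPM with a median of 6.39 in coarct above. The log2 differences from BAT were -0.59 ± 0.20 (SE; adjusted p = 0.0994) below and -0.47 ± 0.20 (SE; adjusted p = 0.262) above. The BAT range spanned both PVAT groups, and library 29 of BAT was the lowest of all. Without it the difference for coarct below passed at an adjusted p of 0.0337, whereas without library 19 of BAT, the highest, it was -0.34 (adjusted p = 0.255) and that for coarct above -0.22. In each sham group 1 library stood far above the rest. Sham above library 20 was at 14.6 CPM, sham below library 24 at 13.3 CPM and sham BAT library 24 at 13.9 CPM, while the other sham libraries were at 4.35 to 7.69 CPM.

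Ccl21, which lymphatic endothelium releases to draw in Ccr7-bearing dendritic cells and T cells, varied most among the abundant ligands. It was at 9.56, 8.96, 5.38, 51.9 and 16.7 CPM in sham above and at 8.12, 34.2, 3.82 and 13.0 CPM in sham BAT. Library 26 of sham above also had the highest sum of lymphatic endothelial markers (6 of 6 in the table, none at 0 in every library of a group), 126 CPM in a range of 46.5 to 126, and library 22 of sham BAT had 96.7 CPM in a range of 26.2 to 96.7. In coarct BAT Ccl21 was at 3.28, 0.627, 0.246, 8.59 and 12.5 CPM, the lowest group mean of the 6, where the lymphatic markers summed to 11.9 to 36.3 CPM. The log2 difference was -1.242 ± 0.856 (SE) for coarct BAT against sham BAT (adjusted p = 0.668; -0.69 without library 22 of sham BAT), and 1.03 ± 0.62 (SE) for coarct below against coarct BAT (adjusted p = 0.312). For coarct above against sham above it was -0.77 ± 0.43 (SE), and 0.06 without library 26 of sham above. The library with the highest Ccl21 was also highest in the sum of macrophage or dendritic cell markers in 5 of 6 groups. For lymphatic endothelial or fibroblast markers this held in 4 of 6. The part of lymphatic or other cells in these values was not tested. In the mouse Ccl21 and Ccl27 exist in near-identical copies, and how reads shared between copies were counted is not given in the sources used here.

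**Figure D3:**
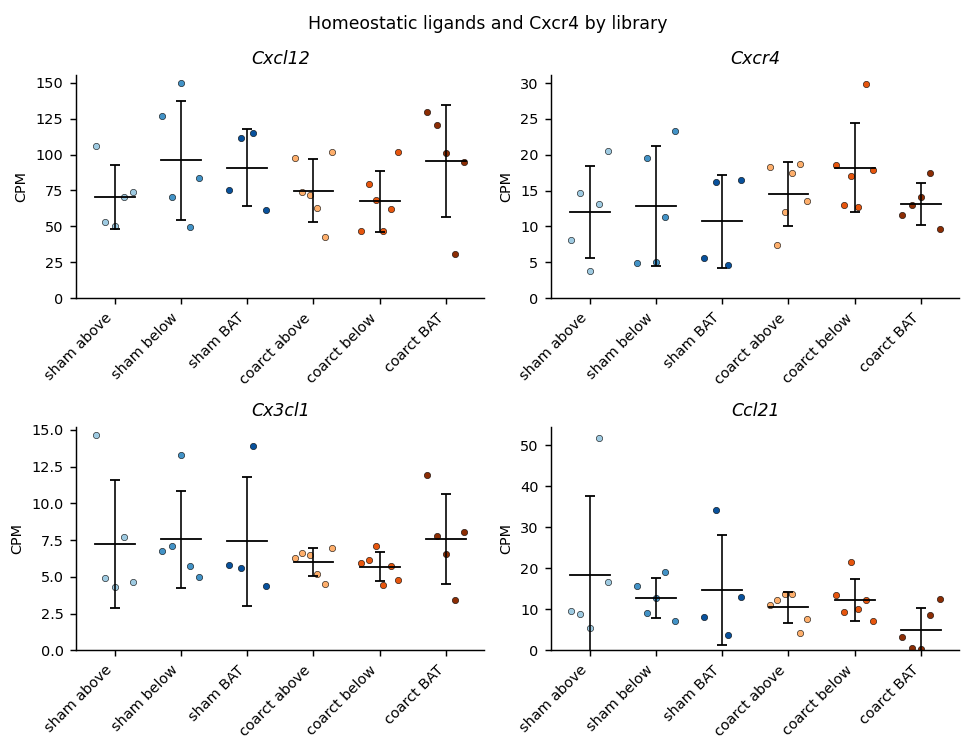
CPM of Cxcl12, its receptor Cxcr4, Cx3cl1 and Ccl21 in each library by group, with the mean (bar) and SD (whiskers). Single libraries carry much of the spread of Cx3cl1 and Ccl21, such as 51.9 CPM of Ccl21 in 1 sham above library. The lowest Cxcr4 values of each sham group are those of libraries 20 and 24.

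Cxcl16, a ligand that binds Cxcr6 and oxidised lipoproteins, was at 12.5, 8.23, 8.28, 10.6 and 8.14 CPM in sham above. It was at 4.32 to 9.22 CPM with a median of 7.07 in coarct above, at 7.48, 8.09, 8.38, 6.21 and 3.63 CPM in sham below and at 5.03, 8.86, 5.19 and 4.03 CPM in sham BAT. Sham above had the highest levels, with overlap in each case. Its log2 differences were 0.63 ± 0.23 (SE) from sham BAT (adjusted p = 0.428), 0.39 from sham below (adjusted p = 0.916) and, for coarct above against sham above, -0.42 ± 0.18 (SE; adjusted p = 0.999). Cxcl17, a mucosal chemokine-like protein, reached at most 1.39 CPM in 31 libraries and was lower in coarct above than below by a log2 estimate of -0.59 (adjusted p = 1.0). Ccl19, the other ligand of Ccr7, was not tested, with 0 to 0.876 CPM over all libraries.

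Of 16 inflammatory CC ligands and Xcl1, 8 were tested in PVAT and none had an unadjusted p under 0.05 in any comparison. Relative to sham above, 6 of 8 had lower estimates in coarct above with a median log2 difference of -0.31, beside a median of 0.01 over all genes tested. Relative to sham below, 4 were higher and 4 lower in coarct below. Ccl6 was at 35.2, 25.1, 37.5, 53.0 and 22.7 CPM in sham above and at 15.1 to 31.3 CPM with a median of 27.2 in coarct above, a log2 difference of -0.45 ± 0.25 (SE; adjusted p = 0.999) with overlapping groups. Macrophage markers (9 of 9 in the table) summed to 231 to 515 CPM in sham above and 140 to 377 CPM in coarct above. The library with the highest Ccl6 was also highest in that sum in 4 of 6 groups, but not in coarct above or coarct BAT. It was highest in the sum of dendritic cell markers in 5 of 6 groups. The part of macrophages or of other cells was not tested.

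The monocyte attractants Ccl2 and Ccl7, neighbouring genes on chromosome 10, were low and scattered. Ccl7 was at 0.935, 0.622, 0.441, 0.621 and 0.127 CPM in sham below and at 0.276 to 2.87 CPM with a median of 0.99 in coarct below, a log2 difference of 1.10 ± 0.57 (SE; adjusted p = 0.881) that was 0.71 without library 27 of coarct below. In sham above it was at 1.76, 0.338, 1.03, 1.73 and 1.65 CPM, and in coarct above at 0.248 to 2.30 CPM with a median of 1.43. The interaction was -0.98 ± 0.78 (SE; adjusted p = 1.0). Ccl2 was at 3.93, 0.732, 2.38, 2.84 and 3.09 CPM in sham above and at 1.23, 2.56, 1.14 and 0.671 CPM in sham BAT, a log2 difference of 0.81 ± 0.56 (SE; adjusted p = 0.826). All these groups overlapped.

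Ccl11, the eotaxin of fibroblasts, held group means of 11.6 to 16.9 FPKM. It was at 12.3 to 25.8 CPM with a median of 16.6 in coarct above and 10.4 to 18.0 CPM with a median of 14.1 in coarct below, overlapping groups with a log2 difference of 0.32 (adjusted p = 1.0). Ccl24, the eotaxin of macrophages, was at 6.23 ± 1.44 FPKM (SD, n = 5) in coarct BAT and 8.74 ± 2.46 FPKM (SD, n = 5) in sham above, its lowest and highest group means. Ccl5, a ligand of Ccr1 made by T cells and NK cells, was at 6.26 ± 3.11 FPKM (SD, n = 5) in coarct BAT and 11.2 ± 1.49 FPKM (SD, n = 5) in sham above. Coarct BAT also had the lowest and sham above the highest group mean of Ccl3, Ccl4, Ccl6 and Ccl9, which attract monocytes and macrophages. The same lowest and highest groups held for genes of other roles, among them Ackr3, Ackr4, Ccl21 and Cxcl16. For the monocyte attractants Ccl2, Ccl7 and Ccl12 the lowest group was not coarct BAT and the highest was not sham above. Ccl12 was lowest in sham above. The highest group means of Ccl3 and Ccl9 were only 0.55 and 0.19 FPKM, and Ccl9 had too few counts to be tested. No test compared coarct BAT with sham above.

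The interferon-induced ligands Cxcl9, Cxcl10 and Cxcl11 attract activated T cells through Cxcr3. They lie side by side on chromosome 14, and their promoters are shown because the estimates of all 3 pointed the same way in several comparisons. The windows run from 250 bases before to 50 after the RefSeq start site (GRCr8, plus strand), at chr14:16006916-16007215 for Cxcl9, chr14:15988816-15989115 for Cxcl10 and chr14:15973478-15973777 for Cxcl11. Capitals mark matches, on either strand, to a kappa-B motif (GGGA and TTCC with 2 bases between), an interferon response motif (GAAA repeated with 2 bases between), a GAS motif (TTC and GAA with 3 bases between) or a TATA motif (TATAAA).
Cxcl9: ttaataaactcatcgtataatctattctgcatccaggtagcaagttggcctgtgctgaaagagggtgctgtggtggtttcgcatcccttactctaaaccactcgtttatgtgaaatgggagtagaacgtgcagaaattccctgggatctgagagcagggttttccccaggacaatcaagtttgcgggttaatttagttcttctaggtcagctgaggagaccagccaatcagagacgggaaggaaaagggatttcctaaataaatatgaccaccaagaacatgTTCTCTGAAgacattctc
Cxcl10: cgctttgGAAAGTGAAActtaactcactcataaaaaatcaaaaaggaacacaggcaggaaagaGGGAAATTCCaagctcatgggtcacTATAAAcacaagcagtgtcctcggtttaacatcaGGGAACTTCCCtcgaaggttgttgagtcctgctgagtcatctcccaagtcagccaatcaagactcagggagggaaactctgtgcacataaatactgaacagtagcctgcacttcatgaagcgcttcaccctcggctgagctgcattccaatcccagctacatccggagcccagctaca
Cxcl11: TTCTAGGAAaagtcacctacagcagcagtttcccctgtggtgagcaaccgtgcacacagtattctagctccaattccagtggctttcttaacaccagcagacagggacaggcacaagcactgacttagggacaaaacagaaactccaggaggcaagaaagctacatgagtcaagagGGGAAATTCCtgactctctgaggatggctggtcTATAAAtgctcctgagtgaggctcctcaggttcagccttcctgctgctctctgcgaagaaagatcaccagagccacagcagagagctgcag
The kappa-B motif was in 1.29% of 27457 promoters of that length, the interferon response motif in 3.77%, GAS in 8.68% and TATA in 14.3%. Cxcl10 held kappa-B matches at 187 and 128 bases before the start, the latter matching on both strands with an offset of 1 base, with a TATA match at 162 bases and an interferon response match at 243 bases. Cxcl11 held 1 kappa-B match 74 bases before the start, a TATA match at 41 bases and a GAS match at the window's edge, and Cxcl9 held 1 GAS match, after the start site. RefSeq promoters were at hand for 41 of the 54 genes. Of those 41, the kappa-B motif was in 6, the interferon response motif in 2, GAS in 6 and TATA in 11. A match describes letters only and shows no binding.

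Relative to sham BAT, all 3 ligands were lower in sham PVAT by estimate. Cxcl9 was at 20.5, 38.4, 25.2 and 24.6 CPM in sham BAT, at 19.6, 18.0, 18.7, 13.0 and 13.7 CPM in sham above and at 11.1, 26.2, 22.4, 14.1 and 9.04 CPM in sham below. Every sham above library was under every BAT library, while sham below overlapped. The log2 differences from BAT were -0.80 ± 0.25 (SE; adjusted p = 0.284) above and -0.73 ± 0.25 (SE; adjusted p = 0.272) below. Cxcl10 was at 1.69, 1.39, 0.40 and 4.23 CPM in sham BAT and at 0.492, 0.718, 0.220, 1.41 and 0.382 CPM in sham below, and the log2 estimate was -1.62 ± 0.62 (SE; adjusted p = 0.339). Cxcl11, named after its values were seen as the remaining gene of the cluster, was at 1.17, 1.28, 0.342 and 2.48 CPM in sham BAT and at 0.689, 0.383, 0.276, 1.242 and 0.127 CPM in sham below, with -1.29 ± 0.57 (SE; adjusted p = 0.43). For both Cxcl10 and Cxcl11 the groups overlapped, with library 26 the highest and library 24 the lowest of sham BAT. Sham above differed from BAT by -0.93 and -1.07 (adjusted p = 0.806 and 0.693). Without library 26 of sham BAT these estimates were -0.82 and -0.72 for sham below, and -0.14 and -0.50 for sham above. Within the libraries of high mitochondrial rRNA Cxcl10 in sham above turned to 0.22.

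In coarcted rats PVAT and BAT overlapped, and whether the difference between these tissues differs between surgeries was not tested. Cxcl9 was at 14.1 to 39.6 CPM with a median of 21.2 in coarct above, at 17.8 to 29.96 CPM with a median of 25.2 in coarct below, and at 31.4, 38.5, 26.7, 18.6 and 15.2 CPM in coarct BAT, with log2 differences from BAT of -0.32 at both sites. By estimate coarct above was higher than sham above by 0.54 ± 0.24 (SE; adjusted p = 0.999) and coarct below than sham below by 0.45 ± 0.24 (SE; adjusted p = 0.881). These comparisons share their sham libraries with those against BAT. The corresponding estimates were 0.24 and 0.83 for Cxcl10 and 0.47 and 0.72 for Cxcl11, all higher in coarctation, with adjusted p of 0.881 to 0.999. Leaving out 1 library gave 0.06 to 0.51 and 0.60 to 1.35 for Cxcl10, and 0.21 to 0.64 and 0.48 to 1.28 for Cxcl11. For Cxcl10 above the ligature the estimate was -0.01 without libraries 20 and 24 of sham above, so its direction was not stable. T cell markers (8 of 9 in the table) had sums of 28.7 to 48.7 CPM in sham above, 14.7 to 42.1 CPM in coarct above, 16.99 to 37.5 CPM in sham below, and 20.1 to 32.7 CPM in coarct below, which overlapped. Between BAT groups Cxcl9 differed by 0.11.

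**Figure D4:**
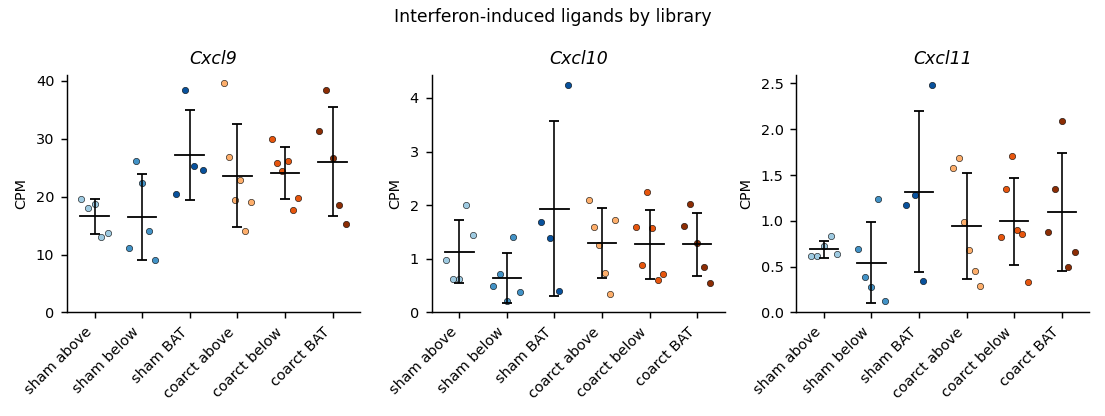
CPM of Cxcl9, Cxcl10 and Cxcl11 in each library by group, with the mean (bar) and SD (whiskers). The Cxcl9 libraries of sham above, 13.0 to 19.6 CPM, lie under those of sham BAT, 20.5 to 38.4 CPM, and the coarctation groups overlap each other.

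Of the 18 signalling receptors, 11 were tested in PVAT. Cxcr4, the receptor of Cxcl12 on most leukocytes and on some endothelium, was the most abundant. In sham rats it was at 8.06, 14.6, 3.78, 13.2 and 20.5 CPM above (libraries 20, 22, 24, 26 and 28), 4.92, 19.6, 5.07, 11.3 and 23.4 CPM below and 5.61, 16.2, 4.57 and 16.4 CPM in BAT. The libraries numbered 20 and 24 were the lowest at all 3 sites, and the other sham libraries were at 11.3 to 23.4 CPM. In coarctation it was at 7.39 to 18.7 CPM with a median of 15.4 above, 12.8 to 29.9 CPM with a median of 17.5 below, and 11.6, 13.0, 14.2, 17.5 and 9.62 CPM in BAT. The log2 estimates of coarctation against sham were 0.35 ± 0.41, 0.41 ± 0.41 and 0.54 ± 0.39 (SE) above, below and in BAT (adjusted p = 0.999, 0.905 and 0.673). The first turned to -0.06 without libraries 20 and 24 of sham above. All 3 moved with single libraries, to 0.13 to 0.62 above, 0.19 to 0.76 below and 0.25 to 0.90 in BAT when 1 library was left out. The lowest came without library 24 of sham above, 29 of coarct below and 24 of sham BAT, and the highest without library 28 of sham above, 28 of sham below and 26 of sham BAT. Ccr10, the receptor of Ccl27 and Ccl28, was even across groups, with group means of 6.43 to 8.29 FPKM and SDs of 0.875 to 2.26 FPKM.

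Between the BAT groups Ccr1 and Cxcr2 were the 2 of 28 genes under an unadjusted p of 0.05, a share near that of all genes. Ccr1, a receptor of Ccl3 and Ccl5 on monocytes and macrophages, was at 4.32, 8.93, 1.54 and 4.23 CPM in sham BAT and 1.34, 1.25, 2.03, 2.62 and 3.04 CPM in coarct BAT, a log2 difference of -0.98 ± 0.43 (SE; adjusted p = 0.652). Cxcr2, the receptor of neutrophil-attracting chemokines, was at 2.57, 3.96, 4.40 and 1.29 CPM in sham BAT and 2.03, 2.17, 1.05, 0.494 and 1.67 CPM in coarct BAT, with -0.92 ± 0.41 (SE; adjusted p = 0.652). The groups overlapped for both, through library 24 of sham BAT for Ccr1 and library 26 for Cxcr2. Library 22 of sham BAT, highest for Ccr1, had the highest sums of macrophage markers (648 CPM, where the range was 220 to 648) and T cell markers (53.6 CPM, 20.5 to 53.6), and the part of these cells was not tested. In coarct BAT these sums were 141 to 290 CPM and 14.5 to 37.4 CPM.

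Cxcr2 was also higher in coarct above than in coarct BAT, at 1.30 to 3.77 CPM with a median of 3.09, by 0.74 ± 0.31 (SE; adjusted p = 0.253), with overlap. Ccr7 had a log2 estimate of 1.08 ± 0.69 (SE; adjusted p = 0.663) for coarct BAT against sham BAT, from 0, 0.226, 0.457 and 0.568 CPM in sham BAT to 0.601, 1.01, 0.862, 0.346 and 0.253 CPM in coarct BAT. Cxcr3 and Cx3cr1, receptors of T cells and of monocytes, held group means of 0.742 to 1.09 and 0.319 to 0.536 FPKM, and Xcr1, a marker receptor of cross-presenting dendritic cells, held 0.0621 to 0.131 FPKM. Ccr3 in coarct above (0.102 to 0.913 CPM, median 0.422) against sham above (1.09, 0.789, 1.5002, 0.558 and 0.532 CPM), and Cxcr6 in sham below (0.148, 0.287, 0.606, 0.113 and 0.0636 CPM) against sham BAT (0.468, 0.829, 1.08 and 0.258 CPM), were named after their values were seen for an unadjusted p under 0.05. Their log2 differences were -0.98 ± 0.44 and -1.43 ± 0.62 (SE), with adjusted p = 0.999 and 0.424.

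All 3 atypical receptors measured were tested in every fit. Ackr2, the decoy receptor that takes up inflammatory CC chemokines, was at 3.26, 3.27, 4.19, 4.29 and 2.77 CPM in sham above (libraries 20, 22, 24, 26 and 28) and at 0.886, 0.766, 0.661, 1.92 and 0.764 CPM in sham below. Every library above was higher than every library below, and the nearest values were 2.77 and 1.92 CPM. The log2 difference was 1.70 ± 0.36 (SE; adjusted p = 0.0865 over all genes), short of the threshold. The adjusted p was 0.00204 by DESeq2, 0.042 by limma on log2(FPKM + 1) and 0.0202 without library 26 of sham below. Leaving out 1 library at a time gave adjusted p of 0.0202 to 0.347 in the edgeR test, so the call turned on single libraries. Over 34 alternatives the log2 difference was 1.08 to 2.10, and in at least 1 of them the adjusted p was above 0.347. In sham BAT Ackr2 was at 1.40, 3.28, 1.14 and 1.81 CPM, between the PVAT sites, with log2 differences of 0.82 ± 0.34 (SE; adjusted p = 0.531) for sham above and -0.90 ± 0.35 (SE; adjusted p = 0.342) for sham below.

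In coarcted rats the sites overlapped. Ackr2 was at 0.745 to 3.51 CPM with a median of 1.89 in coarct above and at 0.645 to 2.18 CPM with a median of 1.35 in coarct below, an overlap with a log2 difference of 0.65 ± 0.32 (SE; adjusted p = 0.965). Coarct above was lower than sham above by -0.79 ± 0.33 (SE; adjusted p = 0.999), and coarct below differed from sham below by 0.26. The test of whether the site difference itself differed between surgeries gave -1.05 ± 0.48 (SE; adjusted p = 1.0), so a difference was not shown. Coarct BAT was at 0.462, 1.21, 0.616, 0.642 and 2.13 CPM, and coarct above exceeded it by 0.85 ± 0.39 (SE; adjusted p = 0.278).

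Several marker lists had higher medians in sham above than in sham below, and of those given here only heart muscle did not overlap. T cell markers (medians 33.9 and 25.6 CPM) and mast cell markers (57.3 and 41.4 CPM) were higher above too. These differences were not tested. The sums of macrophage markers were 231 to 515 CPM above and 134 to 290 CPM below, those of lymphatic endothelial markers 46.5 to 126 and 30.9 to 59.2 CPM, fibroblast markers (7 of 7 in the table) 3120 to 5947 and 1503 to 3354 CPM, and heart muscle markers (5 of 5) 32.5 to 1614 and 0.169 to 4.84 CPM. Dendritic cell markers (5 of 5) summed to 26.6 to 45.6 CPM above and 13.1 to 29.5 CPM below. No gene of these lists was at 0 in every library of either group. The library with the highest Ackr2 was also the one with the highest macrophage sum in 6 of 6 groups, the highest fibroblast or dendritic cell sum in 5, and the highest lymphatic, mast cell or monocyte and neutrophil sum in 4. For each of the other lists this held in 3 groups or fewer. The part of these cells in the Ackr2 difference was not tested.

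**Figure D5:**
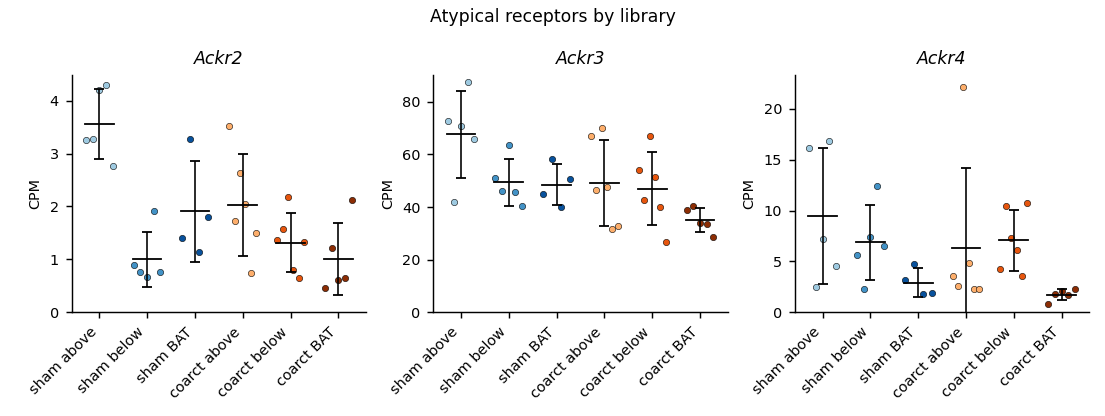
CPM of Ackr2, Ackr3 and Ackr4 in each library by group, with the mean (bar) and SD (whiskers). Ackr2 in sham above, 2.77 to 4.29 CPM, lies above sham below, 0.661 to 1.92 CPM, and 1 library of coarct above reaches 22.2 CPM of Ackr4.

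Ackr4, which removes the Ccr7 ligands Ccl19 and Ccl21 and the Ccr9 ligand Ccl25, had its lowest levels in BAT. It was at 0.831, 1.79, 2.09, 1.73 and 2.28 CPM in coarct BAT and at 3.53 to 10.8 CPM with a median of 6.71 in coarct below, groups that did not overlap. The log2 difference was 1.80 ± 0.55 (SE; adjusted p = 0.0688), where 4.2% of all genes were called. In coarct above it was at 2.26 to 22.2 CPM with a median of 3.07, which touched the BAT range, and the difference was 1.65 ± 0.55 (SE; adjusted p = 0.165). Library 25, at 22.2 CPM, carried much of it, and the difference was 0.66 without that library. DESeq2 gave adjusted p of 0.0107 below and 0.0444 above.

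In sham rats Ackr4 was at 3.21, 4.79, 1.83 and 1.91 CPM in BAT, 16.2, 2.54, 7.19, 16.8 and 4.58 CPM in sham above and 5.66, 2.30, 7.44, 12.4 and 6.56 CPM in sham below. Library 22 was the lowest at both PVAT sites and the highest in BAT, so the groups overlapped. The log2 differences from BAT were 1.58 ± 0.55 (SE; adjusted p = 0.392) above and 1.242 ± 0.551 (SE; adjusted p = 0.437) below. Surgery groups overlapped within each PVAT site, with -0.57 ± 0.58 (SE) for coarct above against sham above. That estimate was -1.55 without library 25 of coarct above, -0.31 without library 20 and -0.30 without library 26 of sham above. Mesothelial markers, at 16.8 to 166 CPM in PVAT, were at 0.185 to 0.456 CPM in coarct BAT and 0.0516 to 1.43 CPM in sham BAT. Lymphatic endothelial markers were at 36.7 to 77.0 CPM in coarct below and 11.9 to 36.3 CPM in coarct BAT, which do not overlap. The part of these cells in the Ackr4 difference was not tested. The neuron-rich libraries 23, 25, 29 and 30 of coarct below were also left out, a choice made after seeing the data. Only libraries 19 and 27 of that group then remained, and the difference of coarct below from BAT was 1.38 (adjusted p = 0.439). With so few libraries, a part of neurons cannot be told apart from the loss of libraries.

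Ackr3, the scavenger of Cxcl12 and Cxcl11 on endothelium and stroma, was at 72.6, 41.7, 70.8, 87.3 and 65.7 CPM in sham above and at 31.5 to 69.9 CPM with a median of 46.9 in coarct above. The groups overlapped, and sham above held the highest library of all groups. The log2 difference was -0.43 ± 0.20 (SE; adjusted p = 0.999). Relative to sham above the estimates of all 3 atypical receptors were lower in coarct above, with a median of -0.57, beside 0.01 over all genes. That median is the value of Ackr4, which was 0.98 within the libraries of low mitochondrial rRNA. Coarct BAT had the lowest group mean of Ackr3, 18.1 ± 2.40 FPKM (SD, n = 5), and library values of 28.7 to 40.2 CPM.

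Of a list of 50 other genes of the pathway, 49 were in the table and 39 or 40 were tested in a fit. The test called none in the PVAT comparisons of surgery or site, in the interaction or between BAT groups. In sham below against sham BAT, where 0.81% of all genes were called, it called 1 of 39 lower, Sele, the endothelial E-selectin on which leukocytes roll, at 0.192 to 0.441 CPM below and 0.929 to 4.45 CPM in BAT (log2 difference -2.78, adjusted p = 0.0237). In coarct above against BAT, where 1.28% of all genes were called, it called 1 of 40 lower, Gnai2, the inhibitory G protein subunit of chemokine receptors (-0.69, adjusted p = 0.04). In coarct below against BAT, where 4.2% of all genes were called, it called 5 of 40, with 3 lower and 2 higher. The lower ones were Gnai2 (-0.71, adjusted p = 0.0176), the lymphotoxin receptor Ltbr (-0.54, adjusted p = 0.0405) and the interferon gamma receptor Ifngr1 (-0.30, adjusted p = 0.048). The higher ones included the tyrosine kinase Ptk2b (1.20, adjusted p = 0.00572). Both lists of genes were drawn up with earlier results of these data known.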

How the data were processed

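The authors deposited whole-number read counts per Ensembl gene and an FPKM table for the same 31 libraries. The submitters' processing notes name STAR 2.5, HTSeq 0.6.1 and DESeq2 1.24.0; genome build, annotation and strand setting are not given. Dividing each count by a fixed gene length and the column sum returned the deposited FPKM to within a relative 6.88e-15; 8811 genes had no count. CPM was computed from the counts, with library totals of 15713160 to 26530733.

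The test was the quasi-likelihood F test of edgeR 4.0.16 (low counts removed by filterByExpr, TMM scaling, group means, Benjamini-Hochberg adjustment over all genes tested, threshold 0.05) in R 4.3.3. PVAT groups, BAT groups, sham groups and coarctation groups were fitted as 4 sets, so comparisons within a set share libraries. The script was tested on simulated data. Alternatives were DESeq2 1.42.0, limma 3.58.1 on log2(FPKM + 1), DESeq2 size factors, no filter, other sets of libraries, a mitochondrial rRNA term or side, a replicate block, and leaving out each library. Numbers in titles were taken as pairs where every same-number correlation of deviations exceeded 0.1, which held for sham below with sham BAT (0.198 to 0.4). No member of the set was called there with or without the block.

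Named were all called members, or else the 3 of lowest p in each comparison, a fixed set of 23 names (21 in the table) and the 10 of highest mean FPKM; values of some genes are not reported here. Members, lists and tests were chosen with earlier results of these data known. Promoters are from RefSeq (GRCr8), matched by symbol for 41 genes.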

Additional observations from a re-analysis of the deposited data

Results flagged for a closer look

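Of 156 sets of values (named genes within a group of 4 to 6 libraries), 7 held a library whose gap to its nearest neighbour was large for the range of its group. Chance alone marks about 1 in 20 such sets. The libraries were Ackr2 at 1.92 CPM in library 26 of sham below, Ackr4 at 22.2 CPM in library 25 of coarct above, and Ccl21 at 51.9 CPM in library 26 of sham above. Cx3cl1 was at 13.3 CPM in library 24 of sham below and at 13.9 CPM in library 24 of sham BAT, and Cxcl14 was at 137.6 CPM in that sham below library. Cxcr4 was at 29.9 CPM in library 29 of coarct below. No explanation of these values was tested.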

How the results depend on the processing

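The count of members called was 0 in all 10 comparisons and stayed 0 in 280 of 292 alternatives. It was 1 in the other 12. For sham above against below, DESeq2, limma, the replicate block and leaving out sham below 26 each gave 1 (leave-one-out range 0 to 1), Ackr2. For coarct above against BAT, DESeq2 gave 1 (Ackr4), and leaving out coarct BAT 27 gave 1 (Cxcl14), a leave-one-out range of 0 to 1. For coarct below against BAT, DESeq2 and the 2 groups alone gave 1 (Ackr4), and the leave-one-out range was 0 to 1: Ackr4 without coarct above 25 or coarct BAT 27, Cxcl14 without coarct below 19, Cx3cl1 without coarct BAT 29. Of 1605 alternatives for 56 log2 differences, 1585 kept direction and side of the threshold, 12 passed it and 8 reversed. Leaving out 1 library moved 25 of the 56 by over 1.5 times or reversed them. Within the low mitochondrial rRNA side, coarct above against sham above gave 0.98 for Ackr4, 0.36 for Ccl21 and -0.067 for Cxcr4. Within the high side Cxcl10 gave -0.019 there and 0.22 for sham above against BAT. The leave-one-out range of Ccl21 was -0.9955 (without sham above 24) to 0.063 (without 26), and without sham above 20 and 24, chosen after seeing the data, Cxcl10 gave -0.0058 and Cxcr4 -0.060. The cause was not tested. The replicate block changed no other call. Under the rule of every same-number correlation above 0.1, title numbers paired libraries only for sham below and BAT. Coarct above and below missed that rule through library 29 alone (0.0982), with the others at 0.178 to 0.433. The main tests treated all libraries as unpaired. Sham above 20 and 24 correlated at -0.0952 and -0.115 with their own numbers in sham below, and best with 24 (0.68) and 20 (0.341). Whether these 2 titles are exchanged was not tested, and an exchange would change the block under which Ackr2 was called. Depth limits the 21 untested members, with at most 23 counts in a library.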
